A study of Mus musculus with 18 samples.

Results

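The 10 genes described here, *Rag1*, *Rag2*, *Dntt*, *Ptcra*, *Cd8a*, *Cd8b1*, *Cd24a*, *Sox4*, *Themis* and *Tox*, are known from immature thymocytes, and were measured in regulatory T cells (Tregs) of the thymus and spleen. They were chosen by name out of 50600 genes of the count table, and each matched 1 row of it by Ensembl identifier. The thymic groups were 5 WT mice of the Foxp3/RFP reporter line and 5 CD25 KO mice (CD25flox/Foxp3-YFP/Cre), all C57BL/6 and 3 to 4 weeks old. The CD25 KO mice of the thymus had been "cured", that is, given WT spleen cells after birth to hold off autoimmunity, so that they also hosted donor Tregs, which lack the YFP used for sorting. In these mice Cre is driven by the *Foxp3* locus and removes exon 4 of *Il2ra*, the gene of CD25. The splenic groups were 4 CD25 KO mice (CD25flox/Foxp3eGFP-Cre-ERT2/R26Y) and 4 reporter controls with intact CD25, called WT, on the same background. All 8 had been given tamoxifen at 7 to 10 weeks of age and were used 10 to 14 days later, with YFP as the sorting mark. Each sample was 1 mouse. Thymic Tregs had been sorted as reporter-positive CD4 single-positive cells, a gate that leaves out cells with CD8α protein, the product of *Cd8a*. Tissue, age, mouse model, tamoxifen and the dates in the headers of the count columns changed together, so that their parts in any difference between thymus and spleen cannot be told apart. Within the thymus, reporter line, Cre and the transfer of WT spleen cells changed with genotype. Their parts in a difference between thymic CD25 KO and WT Tregs, and that of CD25 itself, cannot be told apart either.

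Developing T cells cut and rejoin their antigen receptor genes in a process called V(D)J recombination. *Rag1* and *Rag2* encode the 2 subunits of the recombinase, and *Dntt* encodes terminal transferase, which adds bases at the joints. *Ptcra* encodes the pre-TCRα chain, the partner of a newly made TCRβ chain. At the double-positive stage thymocytes carry both CD4 and CD8, and *Cd8a* and *Cd8b1* encode the 2 chains of CD8. *Cd24a* encodes heat stable antigen, a surface protein lost as thymocytes mature, and *Sox4* encodes a transcription factor of immature lymphocytes. *Themis* encodes a signaling adaptor needed for positive selection, and *Tox* a nuclear factor needed for the CD4 lineage, which mature T cells can also express. Tregs arise from CD4 single-positive thymocytes, which are later than the double-positive stage.

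Thymic libraries held 17239774 to 23993674 counts and splenic ones 25258341 to 32639570. Levels are given as CPM, the counts of a gene scaled to a common library size, on a scale set by TMM over all 18 libraries. Levels compared between genes are CPM per kilobase of exonic length. A level of 3 counts, taken as the smallest detectable, corresponded to 0.163 CPM or less in the thymus and 0.128 CPM or less in the spleen. *Il2ra* separated the genotypes in both tissues, at 524 to 682 CPM in thymic WT, 95.8 to 280 CPM in thymic CD25 KO, 488 to 538 CPM in splenic WT and 168 to 208 CPM in splenic CD25 KO mice. Its log2 fold change was −1.90 (SE 0.298, adjusted p = 0.00239, edgeR) in the thymus and −1.49 (SE 0.0651, adjusted p = 1.39e-09) in the spleen. Transcripts without exon 4 are still counted on the gene. Thymic CD25 KO mice 2 and 4 had the 2 highest *Il2ra* levels of their group, 280 and 234 CPM.

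The stretches before the starts of 5 members are shown because their genes rose or fell from mouse to mouse with *Rag1*, or, for *Sox4*, against it. The *Sox4* relation rested on thymic WT mouse 4 and CD25 KO mouse 5, since Pearson r was −0.679 with them and −0.105 without. The stretches are the 250 bases upstream of the RefSeq start in build GRCm38.p6, written 5′ to 3′ on the strand of the gene, and capitals mark CANNTG, the E-box letters read by E proteins.
Rag1 (chr2:101649533-101649782, minus strand): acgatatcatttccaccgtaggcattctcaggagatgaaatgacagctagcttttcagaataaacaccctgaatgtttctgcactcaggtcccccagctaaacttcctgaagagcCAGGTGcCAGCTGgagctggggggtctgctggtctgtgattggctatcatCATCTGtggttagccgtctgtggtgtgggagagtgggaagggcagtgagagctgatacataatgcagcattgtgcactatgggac
Rag2 (chr2:101624462-101624711, plus strand): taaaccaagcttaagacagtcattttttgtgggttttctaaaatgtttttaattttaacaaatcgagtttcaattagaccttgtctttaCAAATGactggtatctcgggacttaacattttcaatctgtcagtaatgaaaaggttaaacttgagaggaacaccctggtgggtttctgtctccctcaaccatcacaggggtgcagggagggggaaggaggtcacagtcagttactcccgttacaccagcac
Dntt (chr19:41029025-41029274, plus strand): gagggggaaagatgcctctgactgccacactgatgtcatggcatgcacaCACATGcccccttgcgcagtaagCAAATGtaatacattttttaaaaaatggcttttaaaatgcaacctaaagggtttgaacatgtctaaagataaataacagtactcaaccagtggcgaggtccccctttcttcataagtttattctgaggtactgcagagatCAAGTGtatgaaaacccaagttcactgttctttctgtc
Cd8a (chr6:71373177-71373426, plus strand): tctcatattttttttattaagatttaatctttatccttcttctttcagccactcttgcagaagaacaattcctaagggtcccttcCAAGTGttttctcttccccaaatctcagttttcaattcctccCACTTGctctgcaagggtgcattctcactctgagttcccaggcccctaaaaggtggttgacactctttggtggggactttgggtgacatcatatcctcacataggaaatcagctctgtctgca
Sox4 (chr13:28953700-28953949, minus strand): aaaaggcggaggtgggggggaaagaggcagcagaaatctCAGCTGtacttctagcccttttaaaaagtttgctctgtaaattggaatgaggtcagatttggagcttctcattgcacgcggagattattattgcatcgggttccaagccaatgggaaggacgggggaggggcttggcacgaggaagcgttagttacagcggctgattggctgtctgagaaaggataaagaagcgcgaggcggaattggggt
RefSeq promoters were found for 7 of the 10 members, and none for *Cd8b1*, *Cd24a* and *Tox*. CANNTG reads the same on both strands. It occurred 3 times before *Rag1*, 1 time before *Rag2*, 3 times before *Dntt*, 2 times before *Cd8a* and 1 time before *Sox4*, and the *Ptcra* and *Themis* stretches held 2 each. Of all 27025 promoter stretches of this length, 66.0% held at least 1 such match. The narrower forms CAGCTG (12.8% of all promoters) and CAGGTG (17.1%, searched with CACCTG on the other strand), both cases of CANNTG, stood side by side before *Rag1*, 1 of each. CAGCTG also occurred 2 times before *Ptcra* and 1 time before *Sox4*. TGTGGT, the core letters bound by RUNX factors (14.2% of all promoters, searched with ACCACA on the other strand), occurred 2 times before *Rag1* and in none of the other 6.

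*Rag1* and *Rag2* lie next to each other on chromosome 2 and are transcribed toward one another, *Rag2* on the plus strand from 101624718 to 101632529 and *Rag1* on the minus strand from 101638282 to 101649501. *Cd8b1* (71322788 to 71337494) and *Cd8a* (71373427 to 71379173) follow each other on the plus strand of chromosome 6. The other members lie apart, *Dntt* on chromosome 19, *Ptcra* on 17, *Sox4* on 13, *Tox* on 4 and, far from each other, *Themis* and *Cd24a* on chromosome 10.

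Within each genotype, every member was higher in all thymic mice than in all splenic mice. Across genotypes the tissues were not fully apart, since *Themis* and *Tox* levels of thymic WT mice overlapped those of splenic CD25 KO mice. In the spleen *Rag1*, *Rag2* and *Ptcra* were at or near 0, *Dntt* and *Cd24a* stayed below 1 CPM, *Sox4* and *Cd8a* below 6 CPM and *Cd8b1* below 9 CPM, whereas *Themis* and *Tox* were well expressed in both tissues. Per kilobase, *Tox* was the most abundant member in thymic WT Tregs at 27.9 ± 1.61 CPM per kb (SD, n = 5), and *Sox4* followed at 16.9 ± 1.93. *Cd8b1* (11.9 ± 3.09), *Themis* (11.7 ± 1.51) and *Cd24a* (9.65 ± 0.618) came next and were within their spread of one another. *Rag1* (5.43 ± 4.90), *Dntt* (5.23 ± 2.56) and *Cd8a* (3.79 ± 2.30) overlapped as well. *Rag2* (0.452 ± 0.440) and *Ptcra* (0.278 ± 0.194) were the least abundant. In splenic WT Tregs the order was *Tox* at 21.8 ± 1.50 CPM per kb (n = 4), *Themis* at 7.64 ± 0.362 and *Cd8b1* at 5.04 ± 0.382, and every other member was below 1 CPM per kb.

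**Figure D1:**
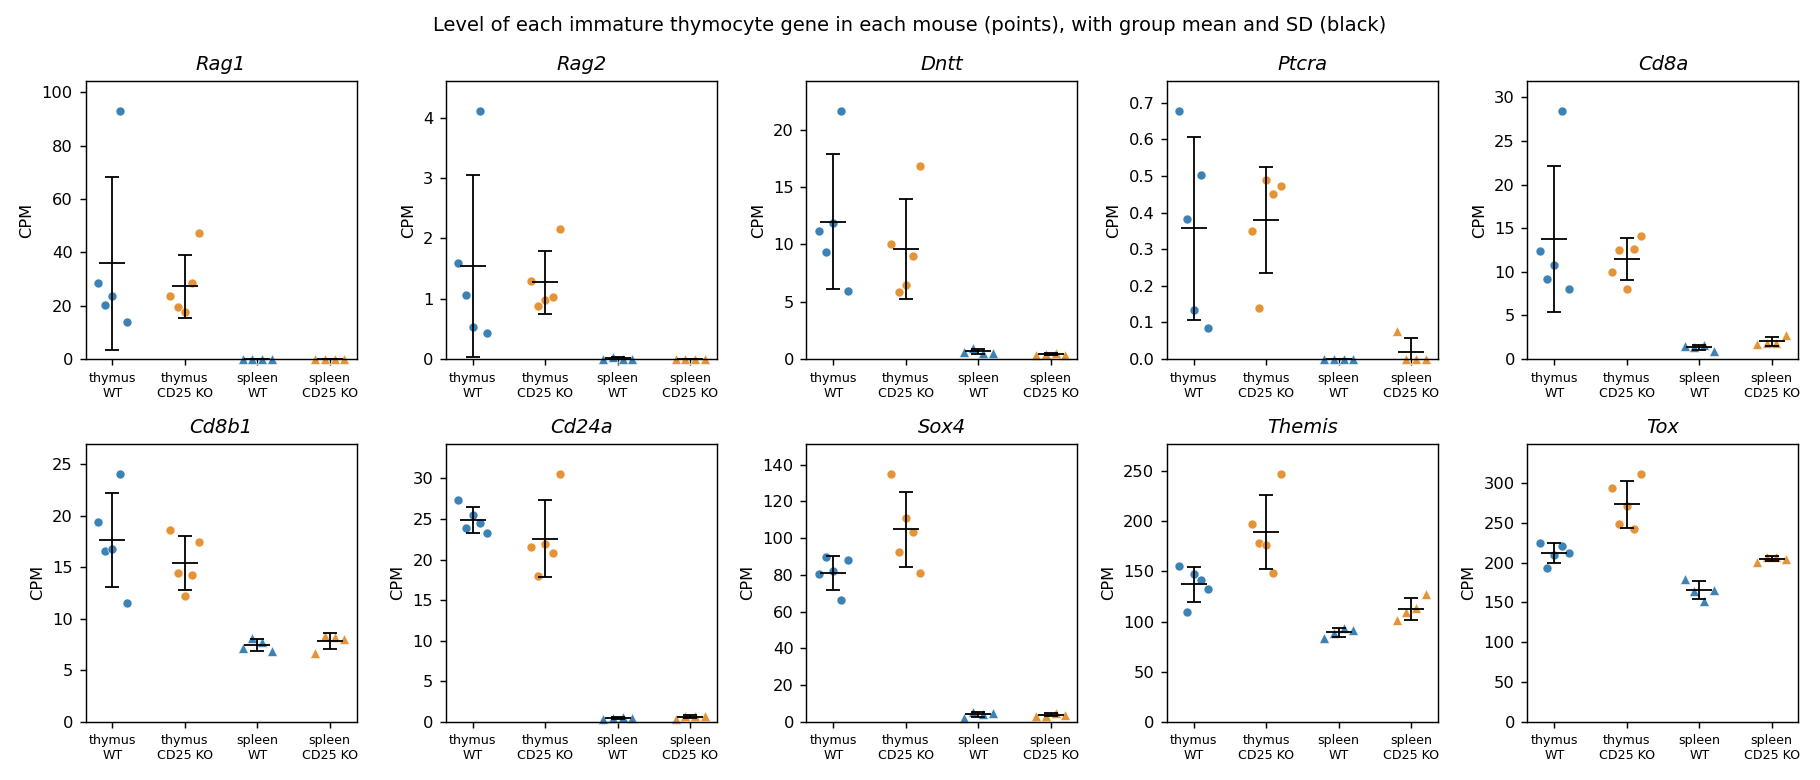
Level in CPM (linear axis from 0) of each of the 10 genes in each mouse, with circles for thymus, triangles for spleen, blue for WT, orange for CD25 KO, and black marks for the group mean and SD. Thymic WT mouse 4 stands above the other thymic WT mice in *Rag1* (93.1 CPM), *Rag2*, *Dntt*, *Cd8a* and *Cd8b1*, and *Themis* and *Tox* are the only 2 genes with over 80 CPM in every splenic mouse.

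The recombinase genes were read in every thymic Treg library. *Rag1* stood at 28.4, 20.4, 23.5, 93.1 and 14.0 CPM in thymic WT mice 1 to 5 and at 23.5, 19.5, 17.5, 28.5 and 47.2 CPM in thymic CD25 KO mice 1 to 5. The groups overlapped, and 1 WT mouse, number 4, held 2037 of the 3954 *Rag1* counts of its group. The fold change was −0.38 on the log2 scale (SE 0.462, 95% interval −1.39 to 0.618, adjusted p = 0.572). *Rag2* was at 1.60, 1.06, 0.539, 4.11 and 0.427 CPM in WT and 1.30, 0.875, 0.980, 1.04 and 2.15 CPM in CD25 KO mice. Its log2 fold change of −0.27 (SE 0.536, interval −1.44 to 0.892, adjusted p = 0.744) did not pass the test either. *Dntt* ranged from 5.93 to 21.7 CPM in WT and from 5.80 to 16.8 CPM in CD25 KO mice, with a log2 fold change of −0.31 (SE 0.340, adjusted p = 0.538). The highest mouse of each group in all 3 genes was WT mouse 4 and CD25 KO mouse 5. Without WT mouse 4, the log2 fold changes turned to 0.36 for *Rag1* (SE 0.284, adjusted p = 0.381), 0.51 for *Rag2* (SE 0.401, adjusted p = 0.380) and 0.02 for *Dntt* (SE 0.299, adjusted p = 0.964). The intervals leave room for changes of either sign.

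In the spleen, no read of *Rag1* was counted in any of the 8 libraries. A single *Rag2* read was counted, in splenic WT mouse 2. Neither gene could be tested between the splenic genotypes. *Dntt* remained readable there, at 0.620, 0.988, 0.557 and 0.512 CPM in WT and 0.342, 0.433, 0.531 and 0.316 CPM in CD25 KO mice, from 9 to 27 counts a library. Its log2 fold change of −0.73 (SE 0.319, adjusted p = 0.134) did not pass the test, and the lowest WT and highest CD25 KO mice overlapped narrowly.

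*Ptcra* was near the limit of detection, with 2 to 14 counts in thymic WT and 3 to 10 in thymic CD25 KO libraries, or 0.357 ± 0.249 and 0.380 ± 0.146 CPM (SD, n = 5 each). It did not pass the filter on low counts within either tissue and was not tested between genotypes. In the spleen it was at 0 in 7 of 8 libraries, and splenic CD25 KO mouse 1 held 2 counts.

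The genes of the CD8 chains followed *Rag1* in the thymus. *Cd8a* was at 12.3, 9.18, 10.8, 28.5 and 8.02 CPM in thymic WT and 9.94, 12.5, 8.00, 12.6 and 14.1 CPM in thymic CD25 KO mice. WT mouse 4 again stood above the rest, and the other 9 mice overlapped. The log2 fold change was −0.25 (SE 0.312, adjusted p = 0.587), and 0.20 without WT mouse 4 (SE 0.180, adjusted p = 0.434). *Cd8b1* was at 11.6 to 24.1 CPM in WT and 12.2 to 18.6 CPM in CD25 KO mice, with a log2 fold change of −0.19 (SE 0.174, adjusted p = 0.461). In splenic Tregs *Cd8a* was at 1.51, 1.35, 1.58 and 0.945 CPM in WT and 1.67, 1.87, 1.78 and 2.75 CPM in CD25 KO mice. These groups did not overlap, and the log2 fold change was 0.59 (SE 0.226, adjusted p = 0.0871), which did not pass the threshold. *Cd8b1* had splenic levels of 6.85 to 8.09 CPM in WT and 6.65 to 8.29 CPM in CD25 KO mice (log2 fold change 0.07, interval −0.170 to 0.300, adjusted p = 0.744). The ratio of *Cd8b1* to *Cd8a* per kilobase was thus 2.08 to 4.44 in thymic WT mice and 11.6 to 17.8 in splenic WT mice. Of the 7 tested genes on a list of CD8 T cell and NK markers, which holds both CD8 chains, 4 rose in splenic CD25 KO Tregs. Among all genes tested there, 5.9% rose. *Gzmk*, which encodes granzyme K, had a log2 fold change of 2.13 (SE 0.387, adjusted p = 0.0012), *Klrb1c*, the gene of NK1.1, 1.90 (SE 0.389, adjusted p = 0.0029), and *Nkg7*, a granule gene, 1.64 (SE 0.129, adjusted p = 6.6e-07). The summed level of this list was 38.6 to 46.5 CPM in splenic WT and 80.5 to 114 CPM in splenic CD25 KO mice, and of its genes the NK receptor gene *Ncr1* had no read in the spleen. Their part in the *Cd8a* values was not tested.

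*Cd24a* hardly varied among thymic WT mice, at 27.4, 23.9, 25.5, 24.5 and 23.3 CPM. The thymic CD25 KO mice stood at 21.5, 17.9, 21.9, 20.8 and 30.6 CPM, with the first 4 below every WT mouse and mouse 5 above them all. The log2 fold change was −0.13 (SE 0.121, interval −0.389 to 0.134, adjusted p = 0.466). In splenic Tregs *Cd24a* fell to 9 to 23 counts a library, 0.349 to 0.600 CPM in WT and 0.342 to 0.728 CPM in CD25 KO mice (log2 fold change 0.40, SE 0.317, adjusted p = 0.439). *Cd24a* is also a B cell and red cell gene. B cell markers summed to 13.4 to 16.9 CPM in thymic WT, 11.7 to 18.7 CPM in thymic CD25 KO, 30.4 to 36.4 CPM in splenic WT and 39.4 to 49.2 CPM in splenic CD25 KO mice. Erythroid markers summed to 13.8 to 35.0 CPM in thymic WT and 8.45 to 44.5 CPM in thymic CD25 KO mice. In the spleen they summed to 5.35 to 7.24 CPM in WT and 4.98 to 7.09 CPM in CD25 KO mice. In splenic CD25 KO Tregs 2 of 5 B cell markers tested rose, where 5.9% of all genes tested did. The part of such cells in the *Cd24a* values was not tested.

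*Sox4* ran the other way. Thymic WT mice had 80.6, 89.6, 81.9, 66.1 and 87.8 CPM, and thymic CD25 KO mice 135, 92.6, 111, 103 and 81.1 CPM. In 4 of 5 CD25 KO mice the level was above every WT mouse, and mouse 5 lay inside the WT range. The log2 fold change of 0.38 (SE 0.119, adjusted p = 0.0371) missed the threshold of FDR < 0.01. Splenic levels were 2.25 to 5.31 CPM in WT and 3.31 to 4.89 CPM in CD25 KO mice (log2 fold change −0.15, SE 0.222, adjusted p = 0.698). A lincRNA of the opposite strand, *Gm26735*, covers 54.557% of the exonic bases of *Sox4*, and whether reads were counted by strand is not given in the sources used here. *Gm26735* itself was at 0.105 CPM or less in every library.

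*Themis* and *Tox* were higher in CD25 KO Tregs. *Tox* was at 224, 193, 210, 221 and 212 CPM in thymic WT and 294, 248, 271, 242 and 312 CPM in thymic CD25 KO mice, so that the 2 groups did not overlap. It rose by a log2 fold change of 0.38 (SE 0.0744, adjusted p = 0.00577) and was the only member to pass FDR < 0.01 in the thymus. In the spleen it was at 180, 164, 152 and 166 CPM in WT and at 201, 207, 207 and 205 CPM in CD25 KO mice, again without overlap, and rose by 0.31 (SE 0.0537, adjusted p = 0.00084). *Themis* was at 155, 109, 148, 141 and 132 CPM in thymic WT and 197, 178, 176, 149 and 248 CPM in thymic CD25 KO mice. Only CD25 KO mouse 4 lay inside the WT range. The log2 fold change of 0.48 (SE 0.128, adjusted p = 0.0201) missed the threshold. In splenic Tregs *Themis* was at 83.7, 88.2, 93.2 and 91.8 CPM in WT and 101, 110, 113 and 127.3 CPM in CD25 KO mice and rose by 0.34 (SE 0.0652, adjusted p = 0.00179).

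Thus 1 of 9 members tested passed in the thymus, where 6.16% of all 16986 genes tested passed in either direction and 3.17% were higher. In the spleen 2 of 7 passed, against 9.45% of 17463 genes in either direction and 5.9% higher. Groups of mice did not overlap for 1 member in the thymus, against 7.2% of all genes tested with every CD25 KO mouse higher, and for 3 in the spleen (*Cd8a*, *Themis* and *Tox*, all higher), against 11.2%. The median log2 fold change was −0.19 over the 9 members in the thymus and 0.31 over the 7 in the spleen, and −0.002 and −0.006 over all genes tested. The splenic *Themis* call was lost with all 18 samples in 1 fit (adjusted p = 0.0851). The thymic *Tox* call was lost when WT mouse 2, 3 or 5 or CD25 KO mouse 1 or 3 was left out, with adjusted p between 0.015 and 0.0178. The thymic fold change of *Themis*, a gene of 38.55% GC, moved to 0.15 (SE 0.0785, adjusted p = 0.194) when the trend of each library with GC content was removed, while that of *Tox* was 0.34 (SE 0.0638, adjusted p = 0.00577). Over 16945 genes, thymic log2 fold changes were related to GC content with a Spearman rho of −0.4, and splenic ones over 17423 genes with −0.166. For genes outside the members, fold changes are given without this correction. Without thymic CD25 KO mice 2 and 4, *Themis* also passed in the thymus (0.60, SE 0.127, adjusted p = 0.00626).

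**Figure D2:**
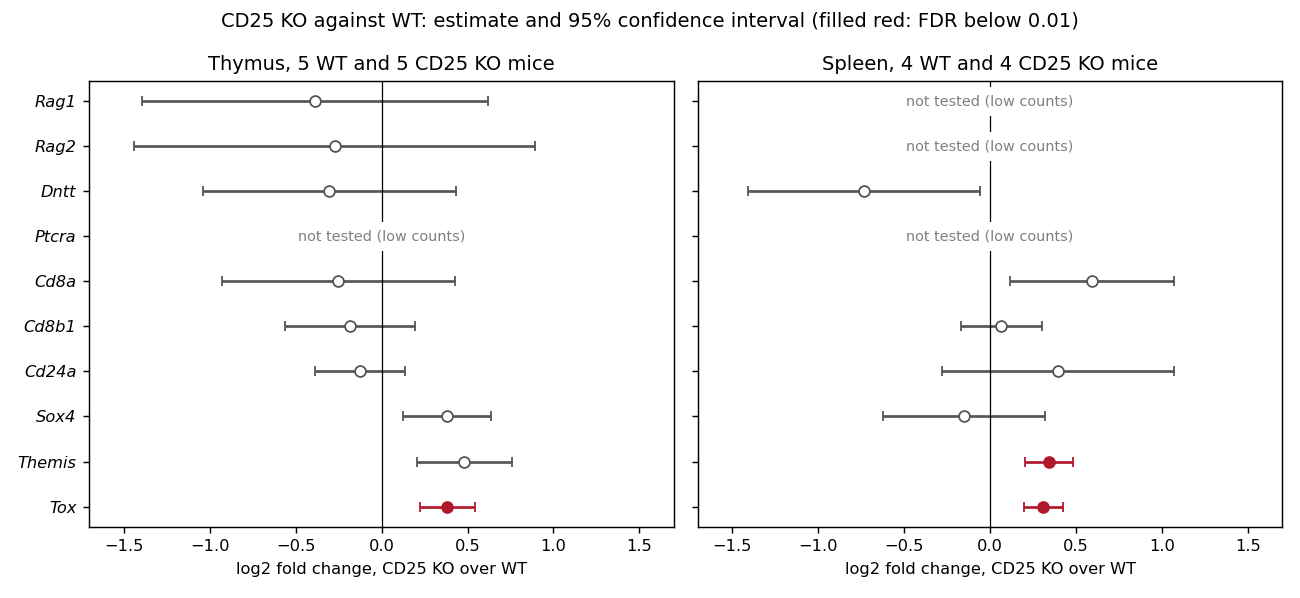
Log2 fold change of each gene, CD25 KO over WT, in thymus (left) and spleen (right), with the 95% confidence interval from edgeR as bars and filled red points for genes at FDR < 0.01. *Tox* in the thymus (0.38) and *Themis* (0.34) and *Tox* (0.31) in the spleen lie to the right of 0, and the intervals of *Rag1* and *Rag2* in the thymus each span more than 2 log2 units.

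Whether the difference between CD25 KO and WT Tregs was itself unlike in spleen and thymus was tested across all 18 mice together. In the thymus that difference includes reporter line, Cre and cell transfer. By edgeR none of the 7 members readable in both tissues passed FDR < 0.01, against 6.98% of all 18686 genes tested, and by DESeq2 none passed either. The estimate for spleen minus thymus was −0.06 on the log2 scale for *Tox* (interval −0.263 to 0.143), −0.13 for *Themis* (−0.463 to 0.208), −0.52 for *Sox4* (−1.07 to 0.0283) and 0.86 for *Cd8a* (−0.102 to 1.82). All 4 unadjusted p-values were above 0.05, the smallest being 0.0618 for *Sox4*, as were those of *Dntt*, *Cd8b1* and *Cd24a*.

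*Rag1*, *Rag2*, *Dntt*, *Cd8a* and *Cd8b1* varied together among thymic mice of the same genotype. After subtraction of the group means of log2 CPM, *Rag1* went with *Cd8a* over the 10 thymic mice (Pearson r = 0.941, exact permutation p = 0.000625, Spearman rho = 0.927, exact permutation p = 0.000694). It went likewise with *Dntt* (r = 0.927, exact permutation p = 0.000694, rho = 0.855, exact permutation p = 0.00701) and *Rag2* (r = 0.911, exact permutation p = 0.00299, rho = 0.794, exact permutation p = 0.0172). The relation was looser with *Cd8b1* (r = 0.825, exact permutation p = 0.0168, rho = 0.758, exact permutation p = 0.0226). Mice were permuted within genotype, in 14400 ways, two-sided, and these p-values are unadjusted. With Benjamini-Hochberg adjustment over the 9 relations computed, the permutation p of rho was 0.00625 for *Cd8a*, 0.0316 for *Dntt* and 0.0509 for both *Rag2* and *Cd8b1*, and that of r was 0.00313, 0.00313, 0.00896 and 0.0378 in the same order. Thymic WT mouse 4 and CD25 KO mouse 5 lay farthest from the median of *Rag1*. Without them r was 0.784 for *Cd8a*, 0.881 for *Dntt*, 0.656 for *Rag2* and 0.789 for *Cd8b1*. Within each genotype (5 mice) r of *Rag1* with these 4 genes was 0.908 to 0.996 in WT and 0.593 to 0.942 in CD25 KO mice, as a description.

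The other 5 members had lower or negative r with *Rag1*. *Sox4* went against *Rag1* (r = −0.679, exact permutation p = 0.0225, rho = −0.661, exact permutation p = 0.0539, adjusted 0.0405 and 0.097), but the relation rested on the same 2 mice, since r was −0.105 without them. For *Cd24a* r was 0.434 (exact permutation p = 0.0920, rho = 0.442, exact permutation p = 0.223), for *Themis* 0.397 (exact permutation p = 0.239, rho = 0.406, exact permutation p = 0.258) and for *Tox* 0.433 (exact permutation p = 0.158, rho = 0.358, exact permutation p = 0.315). *Ptcra*, with few counts, had r = 0.555 (exact permutation p = 0.153, rho = 0.515, exact permutation p = 0.178). The ratio of *Rag1* to *Cd24a* per kilobase ran from 0.234 to 1.48 in thymic WT and from 0.312 to 0.602 in thymic CD25 KO mice.

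**Figure D3:**
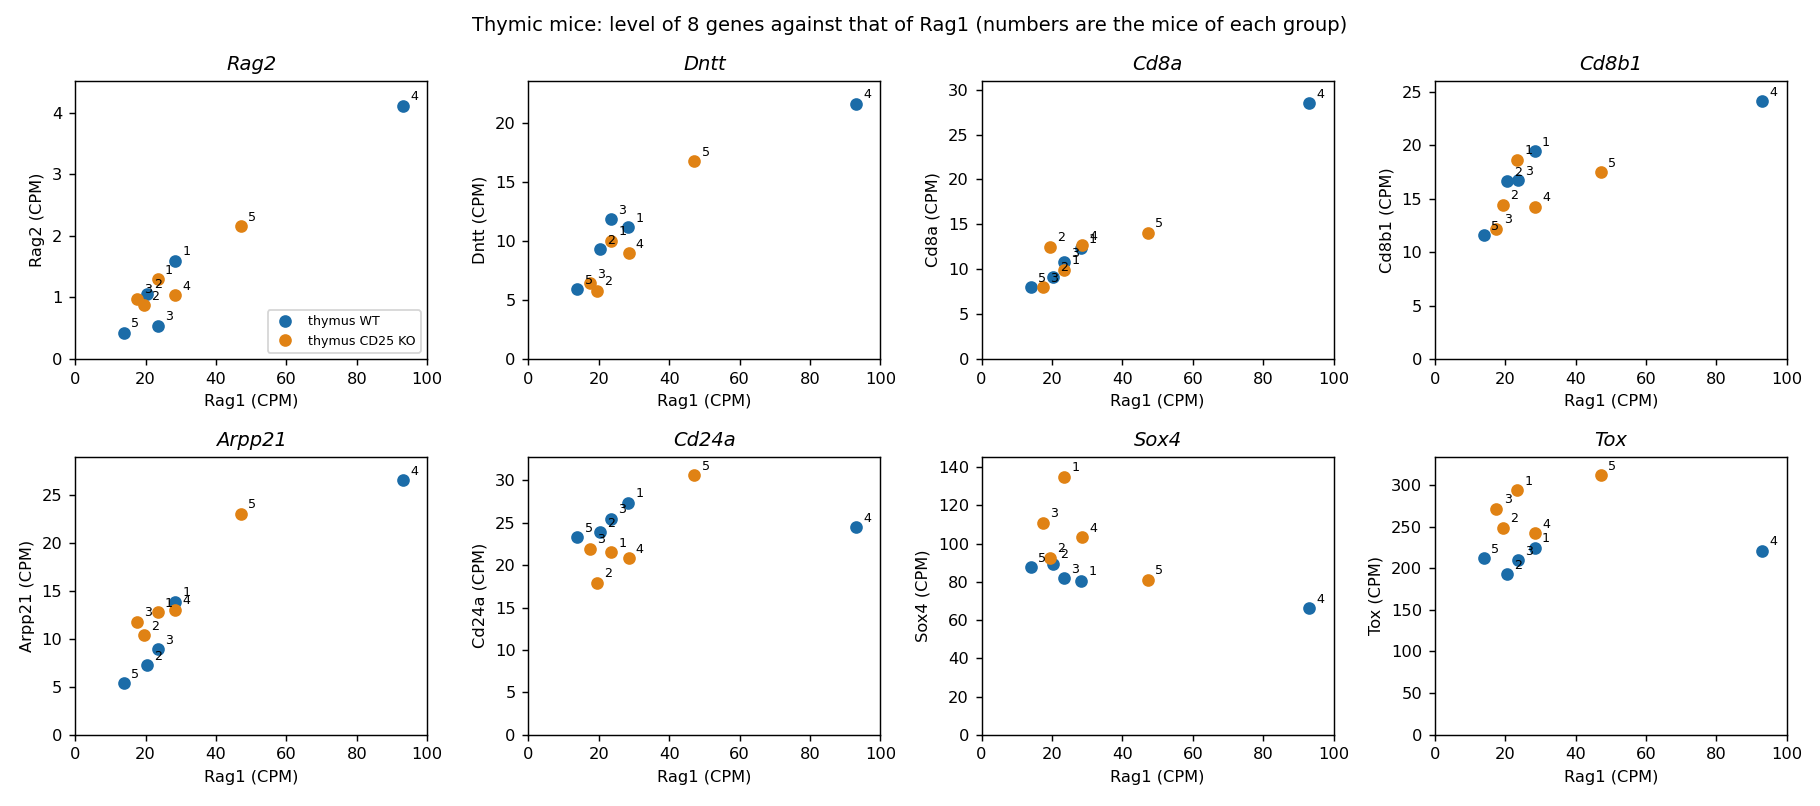
Each of 8 genes (CPM, vertical axis) against *Rag1* (CPM, horizontal axis) in the 10 thymic mice, blue for WT and orange for CD25 KO, with the number of the mouse beside each point. *Rag2*, *Dntt*, *Cd8a*, *Cd8b1* and *Arpp21* are highest in WT mouse 4, where *Rag1* is at 93.1 CPM, whereas *Cd24a* and *Tox* there lie within the range of the other WT mice and *Sox4* below it.

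Of 13250 genes outside the list, those most like *Rag1* over the 10 thymic mice after subtraction of group means included *Arpp21* (r = 0.962) and the predicted genes *Gm15538*, *Gm42571* and *Gm48314* (r = 0.945 each), given without a p-value because they are the highest of many. *Arpp21* is a gene of double-positive thymocytes and was on a list of 15 double-positive markers. *Arpp21* was at 13.8, 7.26, 8.89, 26.5 and 5.38 CPM in thymic WT mice and reached 23.0 CPM in CD25 KO mouse 5, against 10.4 to 13.01 CPM in the other CD25 KO mice. *Endou* (6.76 against 1.02 to 2.95 CPM), *Tdrd5* (4.29 against 0.939 to 1.62 CPM) and *Aqp11* (16.99 against 9.47 to 11.1 CPM) were likewise among the 5 genes of that list that were highest in WT mouse 4. Of the other 10, 4 were below the range of the other WT mice there, among them *Cd1d1* (31.2 against 34.2 to 38.2 CPM) and *Mns1* (7.86 against 8.24 to 9.78 CPM), and 6 were within it, among them *Ccr9* (97.9 against 88.9 to 144 CPM). The list as a whole summed to 2230 to 2660 CPM in thymic WT mice, most of it from the chromatin organizer *Satb1* (mean of 1400 CPM), which mature T cells express too. WT mouse 4 was also the highest of its group in 10 of 13 recirculating and effector Treg markers. CD25 KO mouse 5, the other mouse high in *Rag1*, was the lowest of its group in 8 of these 13 markers, and the highest in 8 of the 15 double-positive and 11 of the 15 mature and egress markers. How often either mouse was highest or lowest over all genes was not counted. The part of other cells in these values was not tested. Over all 18 mice *Lmbrd2*, *Myb*, *Gcc2*, *Pot1b* and *Ggcx* followed *Rag1* most closely, but thymic and splenic mice form separate clusters, so that no pooled r is given.

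*Rag1*, *Rag2* and *Ptcra* entered the fit over both tissues through their thymic counts alone, so that no test of them is counted here. The other 7 members passed the filter on low counts within each tissue, and all 7 were higher in thymic WT than in splenic WT Tregs at FDR < 0.01. Of the 16214 genes that passed the filter in the same way 39.8% were called, 18.8% being higher in the thymus. The mice of both groups did not overlap for these 7 members, against 21.7% of the same genes with every thymic mouse higher. *Cd24a* differed most among the members with reads in every library, at 24.9 ± 1.60 CPM (SD, n = 5) in thymic WT and 0.475 ± 0.107 CPM (n = 4) in splenic WT mice, a log2 fold change of 5.71 (SE 0.197, adjusted p = 7.08e-15). *Sox4* was at 81.2 ± 9.25 against 4.18 ± 1.36 CPM (4.28, SE 0.196, adjusted p = 3.68e-13), and *Dntt* at 11.98 ± 5.87 against 0.669 ± 0.217 CPM (4.14, SE 0.397, adjusted p = 3.24e-08). *Cd8a* was at 13.8 ± 8.38 against 1.35 ± 0.285 CPM (3.35, SE 0.341, adjusted p = 7.9e-08). *Cd8b1* differed less, with 17.7 ± 4.58 against 7.48 ± 0.567 CPM (1.24, SE 0.163, adjusted p = 2.39e-06). The smallest differences were those of *Themis* (0.62, SE 0.115, adjusted p = 0.000141) and *Tox* (0.36, SE 0.0693, adjusted p = 0.000222). Over the 7 members the median log2 fold change was 3.35, against −0.01 over the 16214 genes. Markers of other cells also differed. Erythroid markers summed to 13.8 to 35.0 CPM in thymic WT and 5.35 to 7.24 CPM in splenic WT mice, with *Hbb-bs*, a hemoglobin gene, at 5.76 to 21.9 and 0.110 to 1.16 CPM. Myeloid and dendritic cell markers summed to 33.3 to 67.7 CPM in thymic WT and 43.6 to 47.1 CPM in splenic WT mice. Of 5 genes of that list that passed the filter within each tissue, 3 were lower in thymic WT Tregs and 0 higher. The lower ones were *Xcr1* (−1.74), *Csf1r* (−1.08) and *Zbtb46* (−0.70). Among genes that passed the filter in the thymus only, the plasmacytoid dendritic cell gene *Siglech* was at 3.50 to 21.7 against 0.0387 to 0.158 CPM. *Flt3*, another of these, was at 0.256 to 2.32 against 0 to 0.158 CPM. The part of such cells in the difference between the tissues was not tested.

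Genes without splenic reads allow a bound only. Against the floor of 3 counts a library, *Rag1* was at least 280-fold and *Ptcra* at least 2.79-fold higher in thymic WT Tregs, and without WT mouse 4 at least 168-fold and 2.50-fold. For *Rag2*, 170 thymic counts stood against 1 splenic count, a ratio of 155 (95% interval 27.4 to 6150 from the exact binomial, counting error only), and 90.6 (15.8 to 3620) from the 80 thymic counts without WT mouse 4. Mean levels of the members were also higher in thymic than in splenic CD25 KO mice, a comparison that was not tested. In bulk samples, fewer cells of a type and less RNA per cell cannot be told apart.

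**Figure D4:**
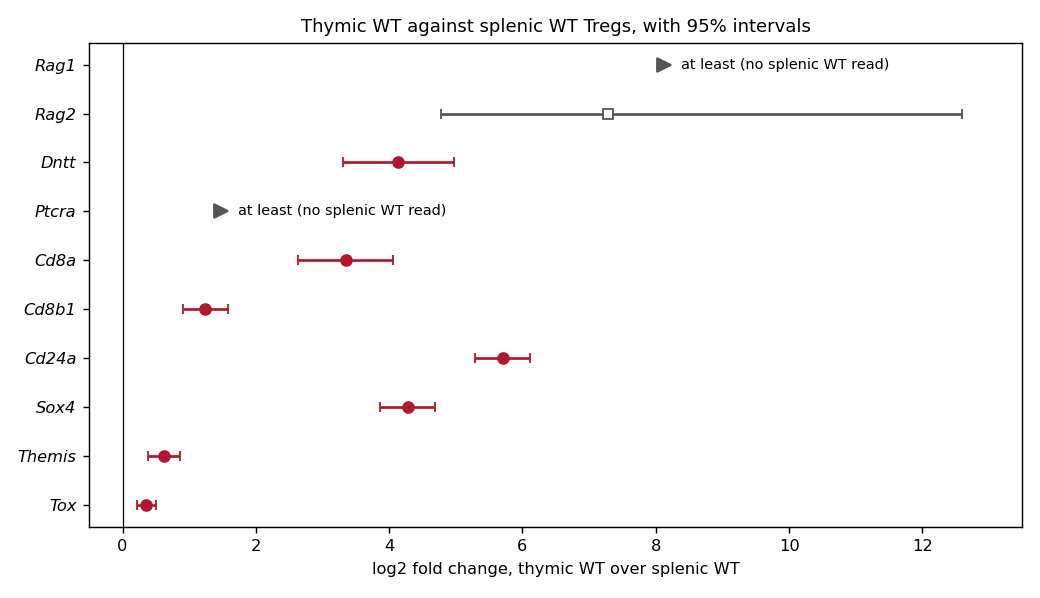
Log2 fold change of each gene, thymic WT over splenic WT Tregs (horizontal axis). Red circles are edgeR estimates with 95% confidence intervals, the open square for *Rag2* is the ratio of pooled counts with its exact interval, and triangles for *Rag1* (at least 280-fold) and *Ptcra* (at least 2.79-fold) are lower bounds; all 10 genes lie to the right of 0.

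Other genes of thymocyte development, on lists chosen by name, were then set beside the members. Of the 15 double-positive markers 10 passed the filter on low counts within each tissue, and of these 6 were higher and 1 lower in thymic than in splenic WT Tregs, where 39.8% of genes were called. *Arpp21*, which passed the filter in the thymus only, was at 5.38 to 26.5 CPM in thymic WT and 0.0394 to 0.385 CPM in splenic WT mice. *Tdrd5*, without a splenic read, was at least 14-fold higher, or 9.12-fold without thymic WT mouse 4. *Plxnd1*, which encodes a semaphorin receptor, was the lower one (−0.92, SE 0.137, adjusted p = 1.21e-05). In the thymic CD25 KO comparison edgeR called 1 of 14 genes tested on this list, *Plxnd1*, which fell (−0.61, SE 0.129, adjusted p = 0.00847), while DESeq2 called 2. Of those tested in the spleen, none of 10 passed by edgeR (5 at an unadjusted p under 0.05, and 1 by DESeq2). Of 4 progenitor markers that passed the filter within each tissue, 2 were higher in thymic WT Tregs. *Kit*, the stem cell factor receptor gene, was at 58.6 ± 8.27 CPM in thymic WT (n = 5), 56.3 ± 9.03 CPM in thymic CD25 KO (n = 5) and 1.60 ± 0.828 CPM in splenic WT mice (n = 4), which is a log2 fold change of 5.19 between the tissues (SE 0.214, adjusted p = 8.94e-14). In thymic CD25 KO Tregs, *Il2ra* itself was the 1 progenitor marker of 6 that passed by edgeR. Between genotypes, 6.16% of all genes tested passed by edgeR in the thymus and 9.45% in the spleen, in either direction.

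The machinery that joins DNA after RAG cutting is shared by all cells. Of 14 such genes 6 passed between the tissues, a share near the 39.8% of all genes. The 2 genes higher in thymic WT Tregs were the ligase gene *Lig4* (0.64, SE 0.101, adjusted p = 2.3e-05) and the Ku70 gene *Xrcc6* (0.28, SE 0.0639, adjusted p = 0.00113). Another 4 were lower, among them the polymerase genes *Polm* (−0.47, SE 0.0774, adjusted p = 4.14e-05) and *Poll* (−0.44, SE 0.104, adjusted p = 0.00151). In thymic CD25 KO Tregs edgeR called 1 of them, *Prkdc*, the DNA-PK catalytic subunit gene (0.32, SE 0.0699, adjusted p = 0.00977), whereas DESeq2 called 3. In splenic CD25 KO Tregs *Hmgb2* (0.62, SE 0.0542, adjusted p = 1.86e-06) and *Hmgb1* (0.22, SE 0.0513, adjusted p = 0.00688) rose, both DNA-bending proteins that assist RAG. The shares of all genes passing between genotypes by edgeR were 6.16% in the thymus and 9.45% in the spleen, in either direction.

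Transcription factors of thymocyte development gave 5 genes higher and 2 lower of 13 between thymic and splenic WT Tregs, where 39.8% of all genes passed and 18.8% were higher. *Myb* led with a log2 fold change of 2.11 (SE 0.0914, adjusted p = 1.56e-13), followed by *Lef1* (1.13, SE 0.0862, adjusted p = 1.08e-09), whereas *Id2*, an inhibitor of E proteins, was lower (−1.47, SE 0.173, adjusted p = 5.77e-07). In thymic CD25 KO Tregs none of the 13 passed FDR < 0.01 by edgeR or DESeq2, and 3 had an unadjusted p under 0.05 by edgeR. Of all genes tested in the thymus, 6.16% passed by edgeR. In the splenic comparison 3 rose, *Id2* (0.90, SE 0.0875, adjusted p = 4.86e-06), *Gata3* (0.41, SE 0.0564, adjusted p = 0.000125) and *Tcf7* (0.24, SE 0.0555, adjusted p = 0.00706). Among all genes tested there, 5.9% rose. For *Id2* (1.38, SE 0.247, adjusted p = 0.000891) and *Gata3* (0.69, SE 0.11, adjusted p = 0.000303) the effect itself differed between the tissues.

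Markers of later stages were set beside these. Between thymic WT and splenic WT Tregs, 4 of 12 selection and semimature markers were higher in the thymus and 2 lower. *Itm2a* (3.20, SE 0.156, adjusted p = 1.09e-12) and *Nr4a1* (1.97, SE 0.0895, adjusted p = 3.14e-13), a gene induced by receptor signals, were among the higher ones. *Ccr4* (−1.27, SE 0.105, adjusted p = 3.62e-09) and *Tespa1* (−0.51, SE 0.107, adjusted p = 0.000455) were the lower ones. The share of all genes called was 39.8%, with 18.8% higher. Of 15 mature and egress markers 9 were lower in thymic WT Tregs, led by *H2-Q7* (−2.23, SE 0.104, adjusted p = 4.96e-13) and *Ly6a* (−2.14, SE 0.0928, adjusted p = 1.68e-13), and 2 were higher. Thymic CD25 KO Tregs had lower *Ly6a* (−1.02, SE 0.114, adjusted p = 0.000355) and *Klf2*, an egress regulator (−0.53, SE 0.0903, adjusted p = 0.00354), and by edgeR the other 13 did not pass FDR < 0.01 (10 of the 15 had an unadjusted p under 0.05, and DESeq2 called 5). By edgeR 1 of the 12 selection and semimature markers fell there, and 2 passed by DESeq2. In splenic CD25 KO Tregs 4 of these 12 rose and 2 fell, and of the 15 mature and egress markers 3 rose and 2 fell. Among all genes tested between genotypes, 6.16% passed in the thymus and 9.45% in the spleen, in either direction.

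Relatives of the members, and *Cd4*, were read as well. Of 5 such genes tested in the spleen 3 rose in CD25 KO Tregs by edgeR, where 5.9% of all genes tested did. *Tox4* (adjusted p = 0.0905) and *Sox12* (adjusted p = 0.23) did not pass there. *Tox2*, a paralog of *Tox*, was at 1.41 to 2.42 CPM in thymic WT and 25.1 to 34.7 CPM in splenic WT mice, lower in the thymus by a log2 fold change of −3.97 (SE 0.211, adjusted p = 4.18e-12), where *Tox* was higher. *Tox2* rose in splenic CD25 KO Tregs to 57.2 to 61.9 CPM (1.07, SE 0.0848, adjusted p = 6.6e-07), and its effect differed between the tissues (1.61, SE 0.325, adjusted p = 0.00235). *Themis2*, best known from B cells and macrophages, rose in the splenic comparison from 0.945 to 1.74 CPM in WT to 3.87 to 4.43 CPM in CD25 KO mice (1.58, SE 0.188, adjusted p = 3.15e-05). *Cd4* rose there by 0.32 (SE 0.0537, adjusted p = 0.000675). Myeloid and dendritic cell markers summed to 43.6 to 47.1 CPM in splenic WT and 49.2 to 61.1 CPM in splenic CD25 KO mice. In that list 1 of 5 genes tested was higher, against 5.9% of all genes, and *Clec9a* had no more than 1 count. The part of such cells in the *Themis2* values was not tested.

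Recirculating and effector Treg markers moved with genotype beside the *Tox* values. In thymic CD25 KO Tregs 8 of 13 were lower, with *Il1rl1*, the IL-33 receptor gene (−4.62, SE 0.516, adjusted p = 0.000355), and *S100a4* (−2.87, SE 0.429, adjusted p = 0.00205) among them. The summed level of the 13 was 365 to 451 CPM in WT and 170 to 269 CPM in CD25 KO mice. Most of it came from *Gpr83*, with a mean of 268 CPM in thymic WT and 129 CPM in thymic CD25 KO mice. *Gpr83* also fell in splenic CD25 KO Tregs (−0.92, SE 0.0738, adjusted p = 7.13e-07), unlike most of the list. *Klrg1*, a defining gene of the list, had at most 1 count in a thymic CD25 KO library. In splenic CD25 KO Tregs 10 of 13 were higher, with *Gzmb* highest (3.41, SE 0.153, adjusted p = 1.52e-09), and 2 were lower. Among all genes tested, 6.16% passed in the thymus and 9.45% in the spleen, in either direction. *Tox* thus rose in both tissues while this list moved down in the thymus and mostly up in the spleen, and its part in the *Tox* values was not tested.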

How the data were processed

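RNA-seq of FACS-purified Tregs covered 18 mice. Reads were mapped by the authors with STAR 2.5.0b (GRCm38), counted per gene of GENCODE M13 with featureCounts 1.5.0 (versions as in the submitters' processing notes) and deposited raw counts. Whether counting used strand is not given in the sources used here. Symbols, positions, exonic lengths and GC content came from GENCODE M21 of the same build, in which 50376 of 50600 identifiers have a symbol. No member has a near-identical copy in that annotation by symbol.

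Analyses used R 4.3.3 and edgeR 4.0.16, with filterByExpr, TMM and the quasi-likelihood test, within each tissue for CD25 KO against WT and over all 18 samples for both contrasts between tissues, and Benjamini-Hochberg adjustment over all genes tested (FDR < 0.01, the threshold of the study). Adjusted p-values in the text are from this test. DESeq2 1.42.0, which the study used, was an alternative, and other alternatives are listed under the dependence on processing. Intervals are 95% and use the degrees of freedom of the fit. Log2 CPM for correlations had a prior count of 2. Scripts were tested on simulated data. Values of some marker genes are not reported here. Reads carry no molecular identifiers, so that floors and counting intervals cover counting error only, and the p-values measure the spread between individual mice. Named genes are all members, up to 3 genes per direction of each list with the largest changes past FDR < 0.01, the most abundant marker, genes overlapping a member and those most like *Rag1*. Markers of thymic mice that stand apart in the text were chosen after their values were seen. The members and lists were chosen with earlier results of these data known.

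Lists without a call between genotypes were thymic epithelium markers (38.4 to 43.9 CPM in thymic WT, 38.9 to 52.6 CPM in thymic CD25 KO mice, *Foxn1* at no more than 3 counts in any library) and, in the thymus, B cell, myeloid and erythroid markers, of which 0 passed by edgeR or DESeq2 (at an unadjusted p under 0.05 by edgeR, 1 myeloid and 1 erythroid marker in the thymus and 1 epithelial marker in the spleen). Treg markers summed to 3170 to 4530 CPM in thymic and 3470 to 4000 CPM in splenic mice. *Foxp3* fell in CD25 KO Tregs of the thymus (−0.74, SE 0.0973, adjusted p = 0.00101) and of the spleen (−0.55, SE 0.0554, adjusted p = 6.9e-06).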

Additional observations from a re-analysis of the deposited data

Results flagged for a closer look

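In 34 groups of mice (a member in a genotype and tissue, with over 3 counts in some mouse), 5 had a highest or lowest mouse far from the rest of its group by Dixon's criterion, which chance meets in about 1 group in 20. Thymic WT mouse 4 was the highest for *Rag1*, at 93.06 CPM, where the other 4 thymic WT mice had at most 28.4 CPM, and for *Cd8a*, at 28.46 CPM, where the others had at most 12.3 CPM. In the splenic CD25 KO group, mouse 1 was the lowest for *Cd8b1*, at 6.654 CPM, and for *Cd24a*, at 0.3422 CPM from 9 counts, and mouse 3 was the highest for *Sox4*, at 4.891 CPM. None of the 7 members readable in both tissues passed the test of a difference of the CD25 KO effect between tissues. Thymic CD25 KO mouse 5 was the highest of its group for 7 of 10 members and the lowest for *Sox4*, and did not meet the criterion for any of them. The same mouse stood outside the other thymic CD25 KO mice in other lists too, so that its position is not particular to the members. How often it was highest or lowest over all genes was not counted. Of the Treg markers it was highest in 3 and lowest in 5. It was highest in 11 and lowest in 3 of 15 mature and egress markers. Among 13 transcription factors of thymocyte development it was highest in 4 and lowest in 7. In 6 of 8 thymic epithelium markers it lay within the range of the others.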

How the results depend on the processing

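The alternatives were DESeq2, scaling by RLE or the upper quartile, dropping the filter on counts or asking for 10 counts in every sample, FDR < 0.05, removal of each library's GC trend, leaving out each mouse, all 18 samples in 1 fit, only the 9 WT samples, and the mouse number as a replicate block, alone or with the GC correction. Leaving out thymic CD25 KO mice 2 and 4 was added after seeing the data. Of 650 fold changes of members recomputed, 632 kept their direction and side of the threshold. Among the 632 are those of *Rag1* (16 settings), *Rag2* (16) and *Ptcra* (15) between thymic WT and splenic WT Tregs. These genes entered that fit through their thymic counts alone, so that their unchanged direction and call there are no check on the result.

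The thymic count of 1 member became 2 by DESeq2, 3 at FDR < 0.05, 2 with all 18 samples in 1 fit, 2 without CD25 KO mice 2 and 4, and 0 to 1 with a mouse left out. The thymic count over all genes, 1047, became 2763, 3951, 2881 and 2008 in these 4 settings, and 371 to 1087 with a mouse left out (428 or fewer without WT mouse 2, 3 or 5 or CD25 KO mouse 1 or 3). In the spleen, all 18 samples in 1 fit gave 1 member (*Themis* lost, adjusted p = 0.0851) and 795 genes, FDR < 0.05 gave 3001 genes, and leaving out a mouse gave 2 members each time and 1099 to 1723 genes (1099 without WT mouse 3). For the difference between tissues, all genes called were 2188 by DESeq2, 3149 at FDR < 0.05, 2307 without CD25 KO mice 2 and 4, and 817 to 1489 with a mouse left out (817 without splenic CD25 KO mouse 2). Between the tissues, 5 members passed the filter of 10 counts in every sample, and all 5 were called. Upper-quartile scaling moved the split of lower and higher genes from 508 and 539 to 440 and 808 in the thymus, and from 465 and 840 to 669 and 616 for the difference.

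Without thymic WT mouse 4 the log2 fold changes of *Rag1* (0.36), *Rag2* (0.51), *Dntt* (0.023) and *Cd8a* (0.20) changed sign, and with each mouse left out they ran from −0.67 to 0.36, −0.54 to 0.51, −0.60 to 0.023 and −0.39 to 0.20, and the difference between tissues for *Themis* did so with the GC correction (0.086). None of these was called in either setting. The cause was not tested.

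The thymic mouse numbers were shared by the genotypes, but deviations of same-numbered mice from their group means correlated at 0.181, 0.0711, −0.199, −0.374 and −0.124, and no mouse correlated best with its own number. With the number as a replicate block, 0 members and 209 genes passed in the thymus (0 and 213 with GC correction as well). Depth limits *Ptcra* in both tissues and *Rag1* and *Rag2* in the spleen, where counts were at or near 0.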
